A study of Homo sapiens with 6 samples.

Results

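The genes described here are the 10 core genes of microRNA processing and silencing, DICER1, DROSHA, DGCR8, XPO5, EIF2C1, EIF2C2, EIF2C3, EIF2C4, TNRC6A and TNRC6B. They were chosen by symbol from the 24294 loci of the deposited expression table, and each was found once. The table compares MCF12A cells that stably over-expressed the microRNA miR-424 with MCF12A cells that carried an empty vector (EV). MCF12A is known as an immortalized, non-tumorigenic line from human breast epithelium, although its label here is that of a breast cancer line. Each group had 3 samples, grown for 48 hours and sequenced as mRNA. Whether the samples within each group are separately derived lines is not said in the labels, so the p-values below rest on a spread that may be technical. No promoter, vector type or number of clones is named in the labels.

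MicroRNAs are cut from long primary transcripts in the nucleus by the Microprocessor, in which the RNase III enzyme DROSHA works with its RNA-binding partner DGCR8. Exportin-5 (XPO5) carries the hairpin to the cytoplasm, and DICER1 cuts it to a short duplex. One strand is loaded into an Argonaute protein, encoded by EIF2C1 to EIF2C4, now named AGO1 to AGO4, of which EIF2C2 is known for cutting fully paired targets. The proteins encoded by TNRC6A and TNRC6B bind Argonaute and bring in the complexes that shorten the poly(A) tail and remove the cap of the target. The comparison asks whether transcripts of this machinery differ in cells that carry an extra microRNA.

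The over-expressed microRNA and relatives of its seed are shown first, because the seed, bases 2 to 8 and in capitals here, is the part that pairs with a target. Sequences are RefSeq's, from GRCh38.p14, written 5′ to 3′.
miR-424-5p: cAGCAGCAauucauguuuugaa
miR-16-5p: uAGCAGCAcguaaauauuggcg
miR-15a-5p: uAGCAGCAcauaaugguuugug
miR-503-5p: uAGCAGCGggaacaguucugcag
miR-107: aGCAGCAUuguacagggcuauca
The seed of miR-424-5p is that of miR-16-5p and miR-15a-5p. The seed of miR-503-5p, whose gene lies beside that of miR-424, ends in another base. That of miR-107, a microRNA known to target DICER1, is shifted along the shared letters.

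Matches to this seed were looked for on the sense strand of the longest 3′ UTR of each gene in GENCODE 29 (GRCh38), with the 7-base motif TGCTGCT, its 8-base form TGCTGCTA, which contains it, and GCTGCTA, counted only outside the 8-base form. Of the 10 genes 7 held TGCTGCT, with 18 matches in all, and 3 held the 8-base form. GCTGCTA was found once in DGCR8 and TNRC6B and at 2 places in EIF2C3, so 8 of the 10 genes held TGCTGCT or GCTGCTA. Over all tested loci with a 3′ UTR, 24.0% held TGCTGCT, 4.56% the 8-base form, 5.74% GCTGCTA and 27.5% TGCTGCT or GCTGCTA. Matches depend on length: among tested loci with a 3′ UTR of 4000 bases or more 56.5% held TGCTGCT and 63.2% either motif, and the median 3′ UTR of the 10 genes was 4278 bases. The following, with the match in capitals and GRCh38 coordinates, are all TGCTGCT matches of DICER1, XPO5, EIF2C3 and the pathway genes TARBP2 and BTG2, with examples from EIF2C1, EIF2C4 and TNRC6B.
DICER1, chr14:95087998-95088020, minus strand: tatgaacgcttttgTGCTGCTga
DICER1, chr14:95087517-95087539, minus strand: atgtggtttggcctTGCTGCTgt
XPO5, chr6:43523400-43523422, minus strand: ccactgagccctttTGCTGCTgg
EIF2C1, chr1:35921190-35921212, plus strand: aggctggggaatttTGCTGCTcc
EIF2C1, chr1:35929022-35929044, plus strand: acaaatatactgaaTGCTGCTAt
EIF2C3, chr1:36071169-36071191, plus strand: tcccactagataatTGCTGCTAa
EIF2C4, chr1:35854411-35854433, plus strand: aagtgcccattttaTGCTGCTgt
TNRC6B, chr22:40325174-40325196, plus strand: tgtcctctgtaactTGCTGCTAt
TARBP2, chr12:53506397-53506419, plus strand: gcctggaataaataTGCTGCTtt
BTG2, chr1:203308179-203308201, plus strand: ctttgctttgctagTGCTGCTtt
BTG2, chr1:203308310-203308332, plus strand: catgaaagtcttgaTGCTGCTgc
TNRC6B had 5 TGCTGCT matches in 12567 bases, EIF2C1, EIF2C2 and EIF2C4 had 3 each, DICER1 had 2, and XPO5 and EIF2C3 had 1 each. DROSHA, DGCR8 and TNRC6A had no TGCTGCT in these sequences, and DROSHA and TNRC6A had no GCTGCTA. The GENCODE transcripts of EIF2C1, EIF2C2 and EIF2C3 span 6229, 11080 and 16041 bases more than the loci of the deposited table. The matches of EIF2C2 start at bases 1602, 1634 and 11250 of a 3′ UTR of 11888 bases. Those of EIF2C3 start at bases 1327, 3955 and 15438 of 16755. If the excess lies at the 3′ end, all matches of EIF2C2 and EIF2C3 lie outside the loci of the deposited table. Where the mRNA of these genes ends in these cells is not known. The 8-base matches of EIF2C1 would then lie outside its deposited locus too. Which end differs was not determined, so the counts above describe the GENCODE sequences.

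Each library is represented by 1 FPKM value per locus (fragments scaled to the length of the transcript and to the depth of the library), with sums between 409776 and 424564 FPKM. Read numbers are not given, and steps in the low values gave only approximate depths of 0.77 to 1.23 relative to EV replicate 1. The host locus of the microRNA, MGC16121/MIR424, was at 107, 106 and 224 FPKM in miR-424 replicates 1, 2 and 3, against 0.989, 1.27 and 1.23 FPKM in EV replicates 1, 2 and 3. Of 8 basal mammary markers 7 were at 1 FPKM or more in every library, all but TP63, at 0.192 FPKM or less. Of 8 luminal markers 5 were, with the epithelial cadherin gene CDH1 at 0.0387 FPKM or less, KRT19 at 0.1633 or less and ESR1 at 0.09524 or less. Among markers of other cell types, 0 of 6 endothelial, 1 of 7 leukocyte (CD68) and 2 of 7 fibroblast markers (COL1A1 and DCN) reached 1 FPKM, with summed levels of 0.250 to 0.306, 53.0 to 58.9 and 164 to 186 FPKM in miR-424 libraries and 0.318 to 0.340, 54.9 to 57.7 and 156 to 166 FPKM in EV libraries. The part of other cell types in the results below was not tested. MiR-424 replicate 3 stood apart. Its tested loci had a median of -0.11 against the EV mean on the log2(FPKM + 1) scale, where replicates 1 and 2 had -0.02 each. For loci with transcript GC content under 40% these medians were 0.07, 0.08 and -0.22 in miR-424 replicates 1, 2 and 3. Results that rest on this library are given with and without it.

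All 10 genes were expressed in both groups, and none of them passed the test of a difference. Changes are log2 differences of FPKM + 1, miR-424 minus EV, tested by limma across the 11574 loci whose mean reached 1 FPKM, p adjusted after Benjamini and Hochberg, and a threshold of 0.05. All 10 genes passed the expression minimum. The 10 changes lay between -0.13 and 0.09, with a median of -0.01, against a median of -0.05 over all tested loci. Adjusted p ran from 0.197 for EIF2C3 to 0.982 for DGCR8, and 0 of 10 genes were called, where 7.56% of all tested loci were (144 loci or 1.24% as higher and 731 loci or 6.32% as lower). With median-of-ratios scaling 344 loci were called higher and 436 lower, and again 0 of the 10 genes. The groups did not overlap for 2 of the 10 genes, XPO5 and EIF2C3, where 33.5% of all tested loci had no overlap. With an unadjusted p under 0.05 there was 1 gene of 10, EIF2C3, where 23.6% of all tested loci had one. In bulk samples, fewer cells of a type and less RNA per cell cannot be told apart.

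**Figure D1:**
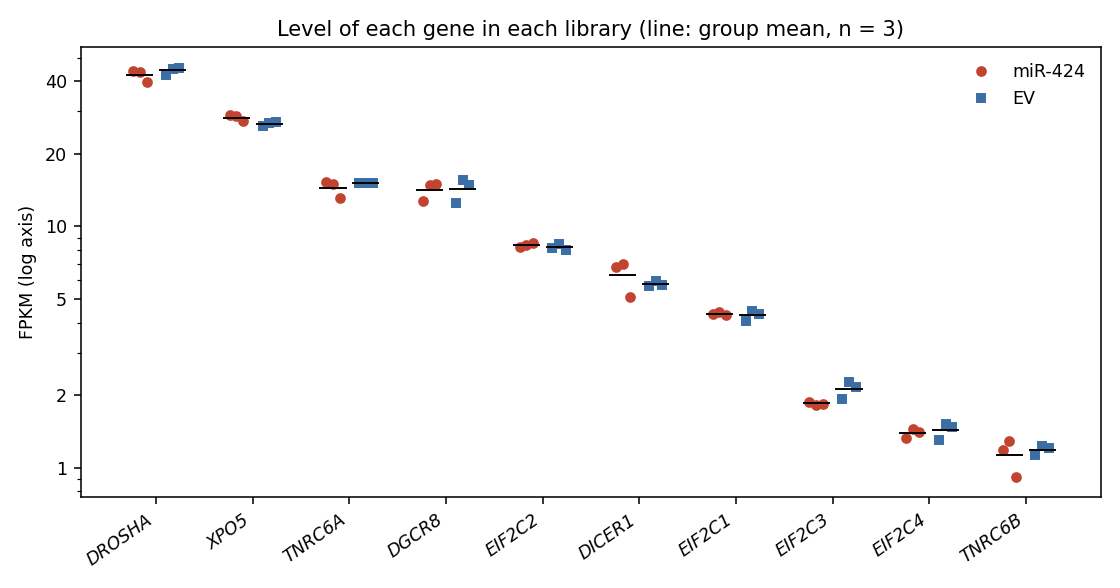
FPKM of each of the 10 genes (log axis) in the 3 miR-424 libraries (circles) and the 3 EV libraries (squares), with a line at each group mean; genes run from the highest to the lowest EV mean. DROSHA is near 44 FPKM and TNRC6B near 1 FPKM, and the groups lie apart only for XPO5 and EIF2C3.

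The levels of the 10 genes spanned a wide range, and the order of their means was the same in both groups. On the FPKM scale, which is per length of transcript, DROSHA was highest at 42.6 ± 2.48 FPKM in miR-424 cells and 44.3 ± 1.56 FPKM in EV cells (SD, n = 3 each). XPO5, TNRC6A, DGCR8, EIF2C2, DICER1, EIF2C1, EIF2C3, EIF2C4 and TNRC6B followed in the order of their EV means. TNRC6B was lowest at 1.13 ± 0.19 FPKM in miR-424 cells and 1.19 ± 0.05 FPKM in EV cells (SD, n = 3 each). TNRC6A and DGCR8 overlapped in both groups, so their order is not resolved. For each of the other 8 neighbouring pairs, the lowest library of the upper gene was above the highest library of the lower gene, in both groups.

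The Microprocessor genes showed no difference that exceeded the spread between replicates. DROSHA (chromosome 5, 31400601 to 31532282; positions in hg19) was at 44.2, 43.8 and 39.7 FPKM in miR-424 replicates 1, 2 and 3, against 42.5, 44.9 and 45.4 FPKM in EV replicates 1, 2 and 3. The groups overlapped, and the lowest value was that of miR-424 replicate 3. The log2 change was -0.06 ± 0.05 (SE), with a 95% interval of -0.19 to 0.07 (adjusted p = 0.594, limma with Benjamini-Hochberg). Median-of-ratios scaling turned its sign, to 0.01.

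DGCR8, which recognises the hairpin for DROSHA, shares its locus with the microRNA genes MIR1306 and MIR3618, and the 3 share 1 value. The locus (chromosome 22, 20067754 to 20104818) was at 12.8, 14.9 and 15.0 FPKM in miR-424 replicates 1, 2 and 3, against 12.6, 15.5 and 14.8 FPKM in EV replicates 1, 2 and 3. Replicate 1 was the lowest library in each group, and the groups overlapped nearly in full. Its log2 change was -0.01 ± 0.09 (SE; 95% interval -0.22 to 0.21; adjusted p = 0.982, limma with Benjamini-Hochberg), and it was positive in 8 of 19 alternative analyses, among them median-of-ratios scaling and quantile normalization of all 6 libraries. The DROSHA to DGCR8 ratio within a library, which is free of scaling between libraries, was 3.46, 2.94 and 2.65 in the miR-424 libraries 1, 2 and 3, against 3.38, 2.89 and 3.07 in the EV libraries (two-sided exact permutation test of the log2 ratio, p = 0.8, with 0.1 the smallest p that 3 against 3 samples allow).

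XPO5, the export receptor of precursor hairpins, was higher in every miR-424 library than in any EV library, without passing the test. XPO5 (chromosome 6, 43490067 to 43543812) was at 28.8, 28.6 and 27.2 FPKM in miR-424 replicates 1, 2 and 3, against 26.1, 26.9 and 27.0 FPKM in EV replicates 1, 2 and 3. The groups did not overlap, although miR-424 replicate 3 and EV replicate 3 were close. Such a separation upwards was seen for 6.59% of all tested loci. The ratio of group means was 1.06 and the log2 change 0.08 ± 0.04 (SE; 95% interval -0.02 to 0.17; adjusted p = 0.294, limma with Benjamini-Hochberg). XPO5 passed in 5 of 19 alternatives, of which all but the removal of the GC trend alone left out or down-weighted miR-424 replicate 3. Its log2 change was 0.13 with the GC trend removed (adjusted p = 0.0310) and 0.10 without miR-424 replicate 3 (adjusted p = 0.0152), both by limma with Benjamini-Hochberg adjustment and in a range of adjusted p from 0.00678 to 0.621 over the 19 alternatives. Of all tested loci 5.98% and 14.9% were called higher in these fits, in that order.

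DICER1, which cuts precursor hairpins, differed among the miR-424 libraries more than between the groups. DICER1 (chromosome 14, 95552564 to 95623759) was at 6.77, 7.01 and 5.09 FPKM in miR-424 replicates 1, 2 and 3, against 5.69, 5.92 and 5.72 FPKM in EV replicates 1, 2 and 3. Replicates 1 and 2 of miR-424 were above and replicate 3 below all EV libraries, so the groups overlapped. The log2 change was 0.09 ± 0.10 (SE), with the widest 95% interval of the 10 genes, -0.15 to 0.34 (adjusted p = 0.657, limma with Benjamini-Hochberg). Without miR-424 replicate 3 it was 0.22 (adjusted p = 0.00356), and with the GC trend also removed 0.16 (adjusted p = 0.0116), both from limma with Benjamini-Hochberg adjustment. Of all tested loci 14.9% and 14.4% were called higher in these fits, in that order. DICER1 passed in 4 of 19 alternatives, with adjusted p from 0.00241 to 0.922, and each of the 4 left out or down-weighted miR-424 replicate 3. The transcript of DICER1 has a GC content of 39.2%, in the class in which the library medians were 0.07, 0.08 and -0.22 in miR-424 replicates 1, 2 and 3. The deviations of DICER1 from the EV mean were 0.20, 0.24 and -0.16 in the same libraries. EIF2C3, the other of the 10 genes under 40% GC (38.9%), was at -0.12, -0.14 and -0.13 in them. Its GC content is that of a GENCODE transcript of 19687 bases, which may extend beyond the locus of the deposited table. With all libraries and the GC trend removed, DICER1 had a log2 change of 0.12 (adjusted p = 0.113, limma with Benjamini-Hochberg).

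The partners of Dicer were measured beside it. TARBP2, which encodes the double-stranded RNA-binding partner TRBP, was at 15.0, 12.9 and 15.6 FPKM in miR-424 replicates 1, 2 and 3, against 18.1, 17.4 and 18.5 FPKM in EV replicates 1, 2 and 3. The groups did not overlap, and each miR-424 library was lower than every EV library, as was the case for 26.9% of all tested loci. Its log2 change, -0.30 ± 0.07 (SE), missed the threshold (adjusted p = 0.0540, limma with Benjamini-Hochberg). Without miR-424 replicate 3 it was -0.35 and passed (limma adjusted p = 0.00434), where 22.2% of all tested loci were called lower. With the GC trend removed it was -0.22 (limma adjusted p = 0.0509), and adjusted p ranged from 0.00279 to 0.202 over 19 alternatives. The transcript has a GC content of 60.8%. Loci over 60% had medians of -0.09, -0.12 and -0.05 in miR-424 replicates 1, 2 and 3. The 3′ UTR of TARBP2, of 283 bases, held the TGCTGCT printed above, as did 9.21% of tested loci with a 3′ UTR of 30 to 1000 bases. PRKRA, which encodes the partner PACT, was at 21.1 ± 2.32 FPKM in miR-424 cells and 22.5 ± 0.42 FPKM in EV cells (SD, n = 3 each; adjusted p = 0.536, limma with Benjamini-Hochberg).

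**Figure D2:**
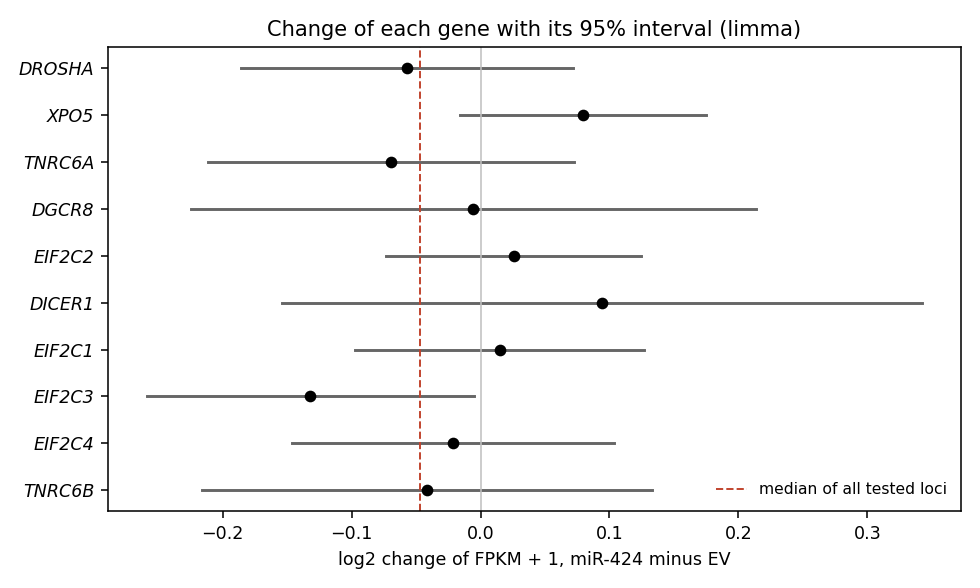
Log2 change of FPKM + 1 (miR-424 minus EV) of each of the 10 genes with its 95% interval from limma; the dashed line is the median of all tested loci, -0.05. DICER1 has the widest interval, and that of EIF2C3 alone does not include 0.

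The 4 Argonaute genes were expressed at unequal levels, and EIF2C3 was the one whose groups did not overlap. EIF2C2, the Argonaute known as the slicer, was at 8.22, 8.41 and 8.51 FPKM in miR-424 replicates 1, 2 and 3, against 8.16, 8.47 and 8.01 FPKM in EV replicates 1, 2 and 3. The groups overlapped, and the log2 change was 0.03 ± 0.04 (SE; 95% interval -0.07 to 0.12; adjusted p = 0.773, limma with Benjamini-Hochberg). EIF2C1 was at 4.32, 4.41 and 4.31 FPKM in miR-424 replicates and at 4.05, 4.48 and 4.36 FPKM in EV replicates. All 3 miR-424 values lay within the EV range, with a log2 change of 0.01 ± 0.05 (SE; 95% interval -0.10 to 0.13; adjusted p = 0.896, limma with Benjamini-Hochberg) that was -0.02 without EV replicate 1.

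EIF2C3 was at 1.87, 1.83 and 1.85 FPKM in miR-424 replicates 1, 2 and 3, against 1.93, 2.27 and 2.17 FPKM in EV replicates 1, 2 and 3. Every miR-424 library was below every EV library, the nearest being EV replicate 1, and the ratio of group means was 0.870. Such a separation downwards was seen for 26.9% of all tested loci. The log2 change was -0.13 ± 0.05 (SE; 95% interval -0.26 to -0.01) with an unadjusted p of 0.0437 and an adjusted p of 0.197 (limma, Benjamini-Hochberg). It was negative in all 18 alternatives, between -0.19 and -0.06. It passed in 1 of them, without miR-424 replicate 3 and with the GC trend removed (adjusted p = 0.0469, in a range of 0.0469 to 0.588, limma with Benjamini-Hochberg adjustment). In that fit 15.1% of all tested loci were called lower. The GC content used there was that of the GENCODE transcript, which may extend beyond the locus of the deposited table.

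EIF2C4 was at 1.34, 1.45 and 1.41 FPKM in miR-424 replicates 1, 2 and 3, against 1.305, 1.52 and 1.48 FPKM in EV replicates 1, 2 and 3. The groups overlapped, and EV held both the lowest and the highest library. Its log2 change was -0.02 ± 0.05 (SE; adjusted p = 0.863, limma with Benjamini-Hochberg) and turned positive with median-of-ratios scaling (0.02) and quantile normalization (0.04). EIF2C1, EIF2C3 and EIF2C4 are neighbours on chromosome 1 in hg19, at 36348809 to 36389899, 36396682 to 36522063 and 36273827 to 36323490. EIF2C2 is on chromosome 8.

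Shares within a library do not depend on scaling between libraries. The summed level of the 4 genes was 15.7, 16.1 and 16.1 FPKM in miR-424 replicates and 15.5, 16.7 and 16.0 FPKM in EV replicates. EIF2C2 made up 52.5 ± 0.40% of that sum in miR-424 cells and 51.1 ± 1.48% in EV cells (SD, n = 3 each). EIF2C1 made up 27.2 ± 0.35% in miR-424 cells and 26.7 ± 0.48% in EV cells, and EIF2C4 8.75 ± 0.26% and 8.92 ± 0.42%. The share of EIF2C3 was 11.9%, 11.4% and 11.5% in miR-424 replicates, against 12.5%, 13.6% and 13.6% in EV replicates, and these did not overlap. Its difference of -1.63 percentage points reached the smallest p that the design allows (exact permutation test, two-sided, p = 0.1, n = 3 each). The other shares gave p = 0.2 for EIF2C1, 0.3 for EIF2C2 and 0.6 for EIF2C4 by the same exact test. With 3 samples a group, none of the 4 could have gone under 0.05, and Benjamini-Hochberg adjustment over the 4 gives 0.4 for EIF2C3, EIF2C1 and EIF2C2 and 0.6 for EIF2C4.

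**Figure D3:**
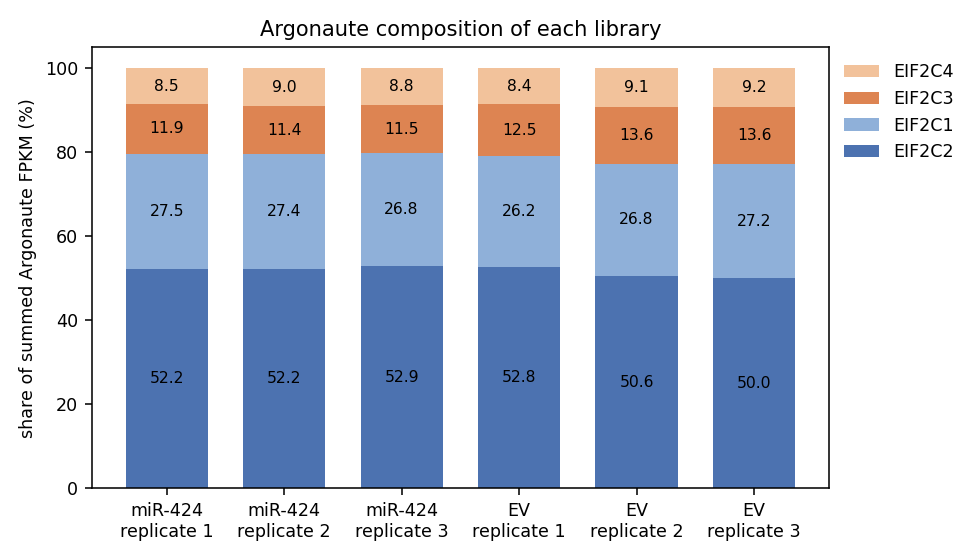
Share of each Argonaute gene in the summed FPKM of EIF2C1 to EIF2C4 (percent) in each of the 3 miR-424 and the 3 EV libraries, without error bars since each bar is 1 library. EIF2C2 takes 50.02% to 52.92% of each bar, and EIF2C3 takes 11.4% to 11.9% in miR-424 libraries and 12.5% to 13.6% in EV libraries.

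The TNRC6 genes, which encode the scaffolds between Argonaute and the deadenylases, were low in miR-424 replicate 3. TNRC6A (chromosome 16, 24741048 to 24837547) was at 15.2, 14.9 and 13.1 FPKM in miR-424 replicates 1, 2 and 3, against 15.2, 15.2 and 15.1 FPKM in EV replicates 1, 2 and 3. The groups overlapped through miR-424 replicate 1, and the log2 change was -0.07 ± 0.06 (SE; 95% interval -0.21 to 0.07; adjusted p = 0.550, limma with Benjamini-Hochberg), and -0.01 without miR-424 replicate 3. TNRC6B (chromosome 22, 40440820 to 40731812) was at 1.18, 1.297 and 0.918 FPKM in miR-424 replicates 1, 2 and 3, against 1.13, 1.23 and 1.21 FPKM in EV replicates 1, 2 and 3. Replicates 2 and 3 of miR-424 were the highest and the lowest of the 6 libraries. Its log2 change was -0.04 ± 0.07 (SE; adjusted p = 0.794, limma with Benjamini-Hochberg) and became 0.03 without miR-424 replicate 3. The third paralog, TNRC6C, was under the minimum for testing, at 0.790, 0.791 and 0.755 FPKM in miR-424 replicates and 0.824, 0.961 and 0.891 FPKM in EV replicates. TNRC6A made up 88.3 ± 0.51% of the sum of the 3 paralogs in miR-424 cells and 87.9 ± 0.63% in EV cells (SD, n = 3 each; exact permutation test, two-sided, p = 0.6).

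In some libraries most of the 10 genes lay on one side of the library's own median. In EV replicate 1 all 10 were below the median deviation of that library's tested loci, and in EV replicate 2 all but 1 were above it. Deviations are taken from the EV mean, so those of a gene in the EV libraries balance out. Low values in EV replicate 1 thus raise those of EV replicates 2 and 3, and these are not separate observations. In miR-424 replicates 1, 2 and 3, 3, 2 and 5 of the 10 were below the library's median. The medians of the 10 genes against the EV mean were 0.00, 0.03 and -0.07 in miR-424 replicates 1, 2 and 3, and -0.05, 0.04 and 0.02 in EV replicates 1, 2 and 3. The summed level of the 10 genes was 123 ± 5.00 FPKM in miR-424 cells and 123 ± 4.19 FPKM in EV cells (SD, n = 3 each; exact permutation test, two-sided, p = 0.7). Among the 8299 loci that averaged 5 FPKM or more, ATP1B1 (r = 0.985), ARHGAP11B (0.979) and VRK3 (0.979) followed this sum most closely by Pearson's r over the 6 libraries, which share the libraries' depth and composition, and 62 loci had an r over 0.9. The sum is weighted towards its most abundant genes, DROSHA and XPO5. How many loci would pass 0.9 by chance with 6 libraries was not worked out, so these r values are a description only.

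**Figure D4:**
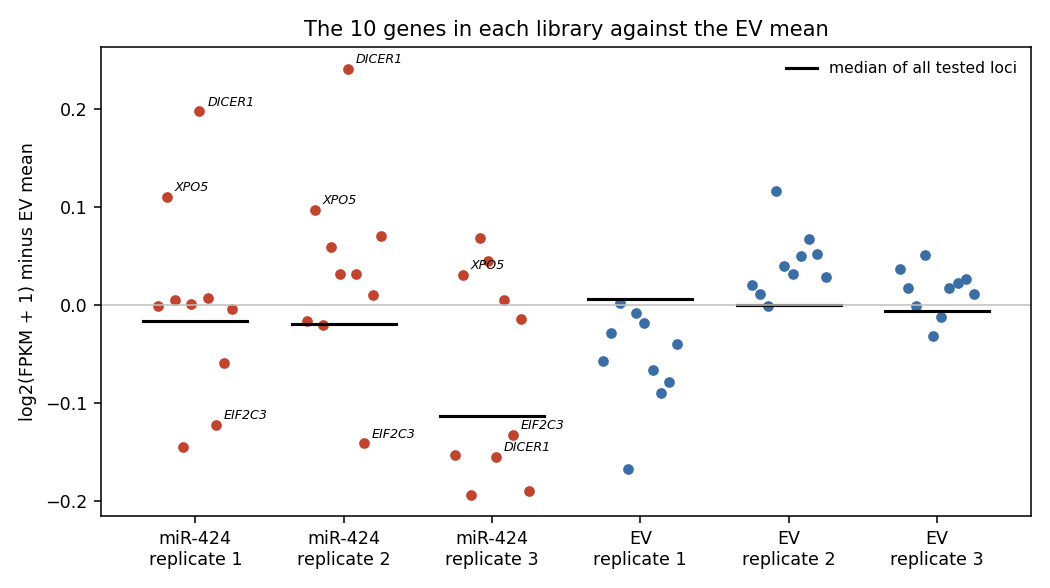
Deviation of the 10 genes from the EV mean on the log2(FPKM + 1) scale in each library, 1 point per gene, with a bar at the median of all tested loci of that library. DICER1 is at 0.20 and 0.24 in miR-424 replicates 1 and 2 and at -0.16 in replicate 3, where the bar is at -0.11.

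The wider pathway was read from 6 lists with 108 genes, of which 103 were tested by limma. Of these 0 rose and 3 fell, against 1.24% and 6.32% of all tested loci, and 13 of the 103 had an unadjusted p under 0.05, against 23.6% of all tested loci. The median log2 change of the 103 was -0.04, against -0.05 over all tested loci. BTG2, which encodes an antiproliferative protein that binds CCR4-NOT deadenylases, was at 10.5, 10.9 and 8.52 FPKM in miR-424 replicates 1, 2 and 3, against 13.51, 13.92 and 13.98 FPKM in EV replicates 1, 2 and 3. All miR-424 libraries were below all EV libraries, as for 26.9% of all tested loci, with a log2 change of -0.44 ± 0.09 (SE; adjusted p = 0.0310, limma with Benjamini-Hochberg). BTG2 holds 2 matches to TGCTGCT in a 3′ UTR of 2164 bases. MOV10, an RNA helicase found with Argonaute, fell to 7.42 ± 0.49 FPKM in miR-424 cells, against 8.90 ± 0.22 FPKM in EV cells (SD, n = 3 each; log2 change -0.23; adjusted p = 0.0488, limma with Benjamini-Hochberg). LSM2, a subunit of the ring that binds deadenylated mRNA and, in another ring, U6 RNA, fell to 34.9 ± 0.45 FPKM in miR-424 cells, against 40.7 ± 1.33 FPKM in EV cells (SD, n = 3 each; log2 change -0.21; adjusted p = 0.0254, limma with Benjamini-Hochberg). MOV10 held no TGCTGCT but 1 GCTGCTA in a 3′ UTR of 239 bases, and LSM2 held neither motif. HNRNPA1 and HSPA8, named below, were not called and held no TGCTGCT but 1 GCTGCTA each. TNRC6C, not tested, held 1 TGCTGCT, and PRKRA and XRN2 held neither motif. Of tested loci with a 3′ UTR of 30 to 1000 bases 9.21% held TGCTGCT and 10.9% either motif. At 2000 to 4000 bases 36.5% held TGCTGCT. A link between matches and changes was not tested.

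These 3 calls were close to the threshold. Leaving out EV replicate 1, 2 or 3 ended all 3, with limma Benjamini-Hochberg adjusted p of 0.128, 0.132 and 0.140 for BTG2, 0.199, 0.180 and 0.164 for MOV10, and 0.111, 0.111 and 0.134 for LSM2. Most calls over all tested loci ended then too: 77, 79 and 84 loci were called lower, against 731 with all libraries. Leaving out miR-424 replicate 1 ended the calls of BTG2, MOV10 and LSM2 too (0.0697, 0.145 and 0.0895), and leaving out replicate 2 ended those of MOV10 and LSM2 (0.126 and 0.0809). Of all tested loci 280 and 365 were then called lower. Without miR-424 replicate 3 all 3 genes passed, with limma Benjamini-Hochberg adjusted p of 0.000433 for BTG2, 0.00115 for MOV10 and 0.00184 for LSM2. Under both other scalings the call of BTG2 held and those of MOV10 and LSM2 ended, with adjusted p of 0.211 and 0.159 by median of ratios and 0.198 and 0.0892 by quantile normalization. Over 19 alternatives the adjusted p ranged from 0.000416 to 0.140 for BTG2, from 0.00106 to 0.211 for MOV10 and from 0.00184 to 0.159 for LSM2. Without miR-424 replicate 3 22 list genes were called higher and 13 lower, where 1728 (14.9%) and 2574 (22.2%) of all tested loci were. With median-of-ratios scaling 2 list genes were called higher and 1 lower, where 2.97% and 3.77% of all tested loci were. With the GC trend removed 7 were called higher and 3 lower, where 5.98% and 7.23% of all tested loci were.

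By role, 0 of 18 Microprocessor cofactors passed in either direction, with a median log2 change of -0.05. Their most abundant member was HNRNPA1, which encodes an RNA-binding protein known to act on some primary transcripts, at 536 ± 28.2 FPKM in miR-424 cells and 572 ± 15.0 FPKM in EV cells (SD, n = 3 each; adjusted p = 0.303, limma with Benjamini-Hochberg). Of 17 genes of export, Dicer partners and the chaperones that load Argonaute 0 passed, with a median of 0.03. Among them the chaperone gene HSPA8 was at 979 ± 14.5 FPKM in miR-424 cells and 939 ± 5.49 FPKM in EV cells (SD, n = 3 each; adjusted p = 0.308, limma with Benjamini-Hochberg). Of 15 tested Argonaute partners 1 fell, MOV10, and of 21 deadenylation genes 1 fell, BTG2, with medians of -0.01 and -0.05. Of 21 decapping and decay genes 1 fell, LSM2, and 17 of the 21 had a negative change, as had 7900 of all 11574 tested loci, with a median of -0.05. Of 11 tested genes of editing, tailing and turnover 0 passed, with a median of -0.02. The nuclear exonuclease gene XRN2 was at 48.4 ± 2.45 FPKM in miR-424 cells and 47.0 ± 1.32 FPKM in EV cells (SD, n = 3 each; adjusted p = 0.700, limma with Benjamini-Hochberg). LIN28A and LIN28B, which block let-7 maturation, were at 0.0865 FPKM or less in every library, and TRIM71, a let-7 target, was listed at 0 in all 6.

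**Figure D5:**
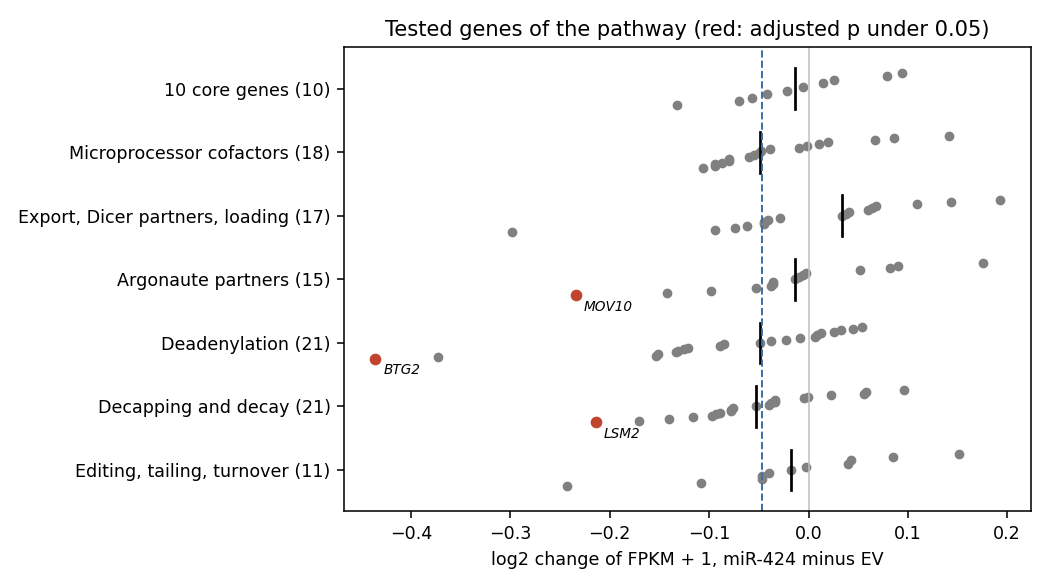
Log2 change of FPKM + 1 (miR-424 minus EV) of the 10 core genes and of the tested genes of 6 lists, 1 point per gene, with a bar at each median and a dashed line at the median of all tested loci, -0.05. The 3 genes past the threshold, BTG2, MOV10 and LSM2, are marked and lie at -0.44, -0.23 and -0.21.

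Genes with equal numbers of seed matches in the GENCODE 3′ UTRs had changes of either sign. Counting TGCTGCT and GCTGCTA together, TNRC6B, with 6 matches, had a log2 change of -0.04. EIF2C1, EIF2C2, EIF2C3 and EIF2C4, with 3 each, had 0.01, 0.03, -0.13 and -0.02. Some matches of EIF2C1, and all of EIF2C2 and EIF2C3, may lie outside the loci of the deposited table. Whether the mRNA of these cells holds them is not known. DICER1 with 2 had 0.09, and XPO5 and DGCR8 with 1 each had 0.08 and -0.01. DROSHA and TNRC6A, with neither motif, had -0.06 and -0.07. Over all tested loci with a 3′ UTR of at least 4000 bases, the median log2 change was -0.04 for the 705 with TGCTGCT and -0.01 for the 542 without it. These are descriptions with no test.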

How the data were processed

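The authors deposited 1 table of FPKM values, with 6 sample columns matched to the samples by title. The submitters' processing notes name TopHat 1.4.1, Cufflinks 1.3.0, Cuffdiff and the builds hg19 and GRCh37, but give no role for any. Annotation, strand use, read numbers and scaling of the libraries are unknown, so no count test, counting interval or detection limit is given. Steps of whole fragments in the low FPKM values were sought against EV replicate 1, but 3.80% to 14.1% of low loci lay within 0.03 (log2) of 1 step, so reads could not be recovered.

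Values were transformed to log2(FPKM + 1), which understates the change of low genes. The 11574 loci that averaged 1 FPKM or more were tested, two-sided, with limma 3.58.1 in R 4.3.3, trended prior variance, no covariate and Benjamini-Hochberg adjustment. Shares within a library were compared by exact permutation (scipy 1.17.1). The method was tested on simulated data. GENCODE 29 transcripts were matched by RefSeq accession or symbol and never by coordinate; 10665 tested loci had a 3′ UTR of at least 30 bases.

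The 10 genes and the lists were chosen with earlier results of these data known. Named beside them were MIR424, TARBP2, PRKRA, TNRC6C and, per list, up to 4 genes past the threshold or, with none, the most abundant. TP63, CDH1, KRT19, ESR1, CD68, COL1A1, DCN, LIN28A, LIN28B and TRIM71 were named after their values were seen. ZSWIM8 was not analysed here. The alternatives were 2 other scalings (median of ratios and quantiles), pseudocounts, filters, weights per library, an untrended prior, a replicate block, leaving out each library, and removal of each library's trend over transcript GC content (loess, span 0.5). The replicate numbers were not taken as pairs.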

Additional observations from a re-analysis of the deposited data

How the results depend on the processing

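The 10 genes gave 0 calls under most alternatives; the exceptions called XPO5, DICER1 or, in 1 case, EIF2C3. Array weights called 2 of the 10 higher (all tested loci 1256 higher and 2307 lower, list genes 18 and 9). Removing the GC trend called 1 higher, XPO5 (all 692 and 837, list genes 7 and 3). Median-of-ratios scaling called 0 (all 344 and 436, list genes 2 and 1), as did quantile normalization (all 319 and 447, list genes 0 and 1). Using no filter on low values also called 0 (all 152 and 749 of 19342 tested loci, list genes 0 and 1). A 5 FPKM filter, under which 6 of the 10 were tested, called 0 of them (all 107 and 468 of 8305 tested loci, list genes 0 and 2). The median log2 change of all tested loci was 0.01 under both scalings, against -0.05 in the reported fit.

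Leaving out 1 library gave 31 to 1728 loci higher and 77 to 2574 lower, with 0 to 2 of the 10 genes higher, 0 to 22 list genes higher and 0 to 13 lower. The upper ends are without miR-424 replicate 3. Alternatives chosen after seeing the data left out that library together with another change. With the GC trend removed 2 of the 10 were higher and 1 lower (all 1670 and 1743, list genes 23 and 10), and with median-of-ratios scaling 2 were higher (all 2434 and 2035, list genes 32 and 9).

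Signs turned as follows, with none of these values past the threshold. DGCR8 was 0.059 with median-of-ratios scaling, 0.048 with quantile normalization, 0.056 with the GC trend removed, with or without a replicate block, 0.016 without miR-424 replicate 3 and with the GC trend removed, and -0.089 to 0.064 with 1 library left out. EIF2C4 was 0.019 with median-of-ratios scaling, 0.037 with quantile normalization, 0.013 with the GC trend removed, with or without the block, and -0.061 to 0.0049 with 1 library left out. TNRC6B was 0.026 with quantile normalization, 0.016 with array weights, -0.097 to 0.033 with 1 library left out and, without miR-424 replicate 3, 0.018 with the GC trend removed and 0.049 with median-of-ratios scaling. With that last pair of changes DROSHA was 0.020, TNRC6A 0.020 and PRKRA 0.023, and DROSHA was 0.011 with median-of-ratios scaling alone. EIF2C1 ranged from -0.019 to 0.040 and the log2 DROSHA to DGCR8 ratio from -0.16 to 0.036 with 1 library left out. The cause was not tested.

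The replicate numbers were not taken to pair the samples. Deviations of same-numbered libraries correlated at 0.05, 0.15 and 0.13 for replicates 1, 2 and 3, and those of other pairs at -0.19 to 0.06. Each miR-424 library correlated most with the EV library of its own number. EV replicate 1, however, correlated more with miR-424 replicate 2 (0.06). Whether the samples are paired is not settled by these values. A replicate block gave 79 loci higher and 270 lower, 0 calls among the 10 genes and 0 among list genes (limma adjusted p of 0.0636 for BTG2, 0.111 for MOV10 and 0.0716 for LSM2), and with the GC trend removed 370 and 538, with 3 list genes higher and 2 lower. MOV10 passed in 8 of 19 alternatives, LSM2 in 10 and BTG2 in 13. With 3 samples a group and no read numbers, counting error in low genes such as TNRC6B cannot be given.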
